A study of Mus musculus with 8 samples.

Results

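The genes described here encode the subunits of voltage-gated sodium and calcium channels. They were taken by name: every gene whose platform symbol begins with Scn and a digit, or with Cacna, Cacnb or Cacng, among probe sets with exactly 1 symbol, with the probe set of highest mean over the 8 arrays standing for its gene. The rule found 36 of 22180 genes, 11 of the sodium channel and 25 of the calcium channel families. Of these, 25 passed the filter on low values (a mean of at least 3.80, log2 intensity) and entered the test across all genes, and 11 did not.

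RNA of frozen hearts from male C57Bl6N mice was measured on Affymetrix arrays 1 week after transverse aortic constriction (TAC), an operation that narrows the aorta and loads the left ventricle with pressure. The group C4KO_TAC held 4 hearts labelled CITED4 knockout and the group F/FCtr_TAC held 4 hearts labelled floxed control. All animals had undergone TAC, so the comparison is of 2 genotypes under load and has no unoperated heart. The sources used here do not give the age of the animals, the Cre driver or whether the controls carried Cre. Nothing in the labels ties a heart to a litter or an array run, so a p-value reflects only how these samples vary, which may be technical in part. CITED4 does not bind DNA itself and works as a cofactor of transcription, known to act with CBP/p300 and with TFAP2 factors.

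Cited4 separated the labelled groups. Its signal was 5.26, 5.15, 4.83 and 5.02 in knockout hearts, against 5.89, 5.76, 6.05 and 6.22 in control hearts (log2 intensity, replicates 1 to 4). The difference of Cited4 was -0.91 ± 0.12 (log2, SE; limma adjusted p = 0.277), or 53.1% of the control signal. Cited4 itself was thus not called in the test across all genes. Array medians lay between 4.29 and 4.33, and precision is limited by the small number of arrays. Knockout replicate 2 stood apart in atrial genes: Myl7, the atrial myosin light chain, was at 9.02 there and between 4.03 and 5.04 on the other 7 arrays. Fibroblast markers, summarised per array as the mean deviation of 20 tested genes from their own means, with 17 of them higher in the knockout, ran from -0.15 to 0.55 in knockout and from -0.51 to 0.19 in control hearts, with knockout replicates 1 and 4 highest. For 20 ventricular cardiomyocyte markers, 17 of them lower in the knockout, the same measure ran from -0.27 to 0.06 in knockout and from 0.047 to 0.13 in control hearts, and their mean level was 10.78 to 11.12 in knockout and 11.10 to 11.18 in control hearts (log2). The labels do not say which part of the heart was used. In RNA from tissue, fewer cells of a type and less RNA per cell cannot be told apart.

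A voltage-gated sodium or calcium channel is built around 1 large pore-forming alpha subunit that senses the membrane potential and opens when the cell depolarises. Sodium channels carry the fast upstroke of the cardiac action potential, and small single-pass beta subunits adjust their gating and anchoring. L-type calcium channels let in the calcium that triggers release from the sarcoplasmic reticulum and so couple excitation to contraction. Their cytosolic beta subunits and extracellular alpha2-delta subunits promote delivery to the surface and set the kinetics, while T-type channels open at more negative potentials and are known for pacemaking and for re-expression in hypertrophied ventricle. Many other members are best known from neurons, sensory ganglia or skeletal muscle.

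The 250 bases before annotated starts were read from RefSeq (GRCm38.p6). They are shown for Scn4b and Cacnb1, which with Cacna1a (not matched) are the 3 members with an unadjusted p under 0.05. Sequence was held for 28 of the 36 genes, in 38 windows. Each window was searched on both strands for GCCNNNGGC, a core recognised by TFAP2 factors, and for the palindrome TGACGTCA, the site of CREB-type factors. Further motifs were GATAAG for factors of the GATA family that act in heart development, CATTCC for TEAD factors, which work with YAP, and TCACACC for T-box factors of the conduction system. The E-box CANNTG of helix-loop-helix factors and the MEF2 motif completed the search. Overlap between motifs was allowed. In the lines below, capitals mark matches to any motif but the E-box. Both windows are in GRCm38.p6. The Scn4b window lies on the plus strand at chr9:45138374-45138623, the Cacnb1 window on the minus strand at chr11:98018373-98018622, before an annotated start inside the gene.
Scn4b: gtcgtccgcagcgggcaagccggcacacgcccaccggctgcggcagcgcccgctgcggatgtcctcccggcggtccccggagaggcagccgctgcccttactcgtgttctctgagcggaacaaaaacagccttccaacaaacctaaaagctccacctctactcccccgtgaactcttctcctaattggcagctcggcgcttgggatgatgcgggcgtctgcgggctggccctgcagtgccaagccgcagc
Cacnb1: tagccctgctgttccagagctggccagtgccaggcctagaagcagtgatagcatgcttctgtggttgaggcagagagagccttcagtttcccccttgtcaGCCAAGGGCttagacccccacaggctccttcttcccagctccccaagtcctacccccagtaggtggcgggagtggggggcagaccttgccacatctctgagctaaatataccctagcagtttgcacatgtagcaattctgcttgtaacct

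The Scn4b window, with a GC content of 66.0%, held no match to any of these motifs. The Cacnb1 window, with 56.0%, held GCCAAGGGC at position -150 counted from the start, and 1 E-box. It was chosen from 2 windows of Cacnb1 because it holds a marked motif, and the window not shown holds 0. The median GC content of all 32851 windows was 52.4%. Over the member windows the TFAP2-type core stood in 4 of 38 (10.5%), against 13.7% of all windows. The TEAD-type motif was in 9 of 38 (23.7%), against 12.6% of all windows, and E-boxes were in 25 of 38 (65.8%), against 66.2%. GATA-type and T-box-type matches were in 3 and 1 of the 38, against 6.55% and 3.33% of all windows, and the CRE-type and MEF2 motifs were in 0, against 1.55% and 0.508%. These are matches of letters and show no binding.

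No channel subunit gene passed the test between the genotypes. With limma and Benjamini-Hochberg adjustment over 15086 genes, 0 of the 25 tested members were called at an adjusted p of 0.05 (background 0%), and their adjusted p-values ran from 0.421 to 0.996. Unadjusted p-values under 0.05 were found for 3 members, 1 higher in the knockout (Cacnb1) and 2 lower (Scn4b and Cacna1a). Of all tested genes 11.2% lay under that level, 5.64% higher and 5.61% lower. Differences (knockout minus control, log2) ran from -0.35 to 0.40 with a median of -0.00334, with 12 members higher and 13 lower. Over all tested genes the median was 0.00382, with 7721 higher and 7365 lower. The 95% interval lay within 0.5 of 0 for 20 of the 25, against a background of 82.3%. The count of 3 depended on single arrays: it was 0 without knockout replicate 1 or without control replicate 3, 1 without control replicate 2 or 4, and 6 without control replicate 1. It was also 0 with unmoderated variances and 1 with a trend and robust estimation. The count over all 15086 tested genes, 1697 as reported, moved with the arrays too. It was 987 without knockout replicate 1, and 1056, 1109 and 1156 without control replicates 2, 3 and 4. Without control replicate 1 it was 2154. With unmoderated variances the count over all genes was 1327, and with a trend and robust estimation 1786.

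**Figure D1:**
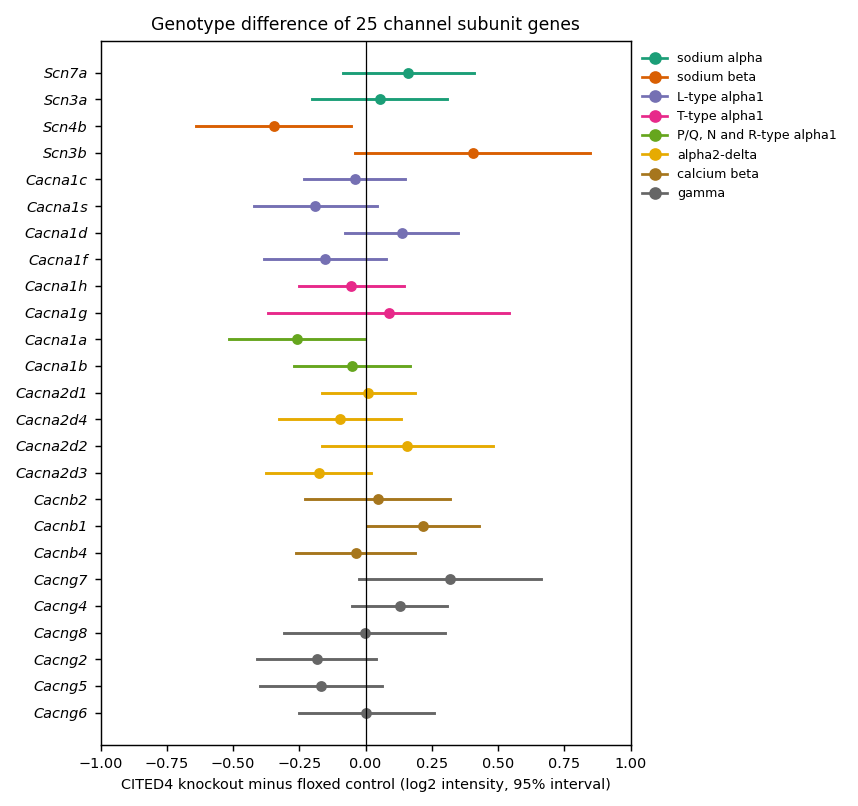
Difference in log2 intensity, CITED4 knockout minus floxed control, for the 25 tested channel subunit genes, ordered by role of the subunit. Points are limma estimates and lines are 95% intervals from 4 knockout and 4 control arrays. Of the 25 estimates, 12 lie right of 0 and 13 left, between -0.35 (Scn4b) and 0.40 (Scn3b).

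Of 8 sodium channel alpha subunit genes only Scn7a and Scn3a passed the filter. Scn7a encodes an atypical alpha subunit that is known as a sodium-level sensor in glia and is weakly if at all gated by voltage. Its signal was 7.85, 7.77, 7.76 and 8.20 in knockout hearts, against 7.81, 7.77, 7.56 and 7.79 in control hearts. A single array of each group, knockout replicate 4 and control replicate 3, lay away from the other 6, and the groups overlapped. The difference was 0.16 ± 0.11 (log2, SE; limma adjusted p = 0.587), and it was 0.061 without knockout replicate 4 and 0.10 without control replicate 3. Scn3a, an alpha subunit of the developing nervous system, was at 4.46, 4.13, 4.29 and 4.22 in knockout hearts, against 3.95, 4.33, 4.43 and 4.18 in control hearts, with a difference of 0.053 ± 0.12. Its groups overlapped over nearly their whole range. The neuronal and sensory alpha genes Scn1a, Scn2a, Scn8a, Scn9a, Scn10a and Scn11a had mean signals of 2.57, 3.17, 3.39, 3.20, 3.15 and 2.76, below the filter, and were not tested.

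The sodium channel beta subunits held both ends of the range of differences. Scn4b, whose product is linked by a disulphide bond to alpha subunits and is known for promoting resurgent current, was lower on average in the knockout. Scn4b signals were 4.01, 4.61, 4.39 and 4.38 in knockout hearts, against 4.57, 4.89, 4.77 and 4.54 in control hearts. Only knockout replicate 2 exceeded a control value, lying above control replicates 1 and 4. The mean was 4.35 ± 0.25 in knockout and 4.69 ± 0.17 in control hearts (SD, n = 4 each), a difference of -0.35 ± 0.13 (SE; 95% interval -0.64 to -0.053) or 78.6% of the control signal. Its limma p was 0.0249 before and 0.421 after adjustment, and p = 0.0857 by exact permutation (two-sided). The difference was -0.19 with knockout replicates 1 and 4 both left out, a setting added with the values known.

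Scn3b, a beta subunit that is known to modulate cardiac sodium current, lay in the opposite direction. Scn3b signals were 4.59, 3.99, 4.87 and 4.92 in knockout hearts, against 4.29, 4.28, 4.35 and 3.84 in control hearts. Knockout replicates 1, 3 and 4 were above every control heart, while knockout replicate 2 lay below 3 of the 4 controls. The means were 4.59 ± 0.43 and 4.19 ± 0.24 in knockout and control hearts (SD), with a difference of 0.40 ± 0.20 (SE; limma p = 0.0700, adjusted p = 0.473; exact two-sided permutation p = 0.171). It was 0.61 without knockout replicate 2, the array with high atrial markers. Scn2b, a beta subunit that binds alpha subunits through a disulphide bond, lay at 3.30, 3.51, 3.52 and 3.63 in knockout hearts, against 3.19, 3.62, 3.72 and 3.80 in control hearts, below the filter.

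Cacna1c, Cacna2d1 and Cacnb2, subunits of the ventricular L-type calcium channel, had small estimated differences between the genotypes, and none was called. Cacna1c encodes the pore of the channel, and its probe set gave 9.23, 9.33, 9.02 and 9.18 in knockout hearts, against 9.27, 9.18, 9.16 and 9.32 in control hearts. The 2 groups covered nearly the same range. The difference was -0.041 ± 0.086 (SE; limma adjusted p = 0.878) with a 95% interval of -0.23 to 0.15, that is 0.851 to 1.11 times the control signal. Cacna2d1, the alpha2-delta subunit that binds gabapentin and is paired with this pore in heart, was at 9.09, 9.01, 8.97 and 9.04 in knockout hearts, against 9.16, 9.02, 8.90 and 8.98 in control hearts. Every knockout value lay between the lowest and the highest control value. Its difference was 0.011 ± 0.079, with an interval of -0.16 to 0.19.

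Cacnb2 encodes the main beta subunit of the cardiac L-type channel. It was at 8.22, 8.19, 7.75 and 8.23 in knockout hearts, against 8.14, 8.07, 8.15 and 7.84 in control hearts. Knockout replicate 3 was the lowest of all 8 hearts and the other 3 knockout hearts the highest. The difference was 0.046 ± 0.12 (SE; interval -0.23 to 0.32), and it was 0.16 ± 0.096 without knockout replicate 3. A Cacnb2 probe set that was not used had a mean of 3.09 and a difference of -0.0013.

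Cacnb1, the beta subunit best known from skeletal muscle, was the single member whose groups did not overlap. Cacnb1 signals were 6.02, 5.62, 5.75 and 5.70 in knockout hearts, against 5.54, 5.61, 5.49 and 5.60 in control hearts. The lowest knockout value exceeded the highest control value by a small margin, and knockout replicate 1 was the highest array. Of all tested genes 5.23% had groups that do not overlap, 2.33% with the knockout higher. The difference was 0.22 ± 0.095 (SE; 95% interval 0.0037 to 0.43), or 116% of the control signal. Its limma p was 0.0468 before and 0.444 after adjustment, and p = 0.0286 by exact permutation (two-sided), which is the lowest value possible with 4 arrays a group. Without knockout replicate 1 the difference was 0.13. The skeletal muscle marker score of that array was 0.18, over 8 tested markers of 16 listed. Knockout replicate 4, where Cacnb1 was at 5.70, had the highest score of all, 0.19. The scores ran from -0.065 to 0.19 in knockout and from -0.19 to -0.011 in control hearts. The part of these markers in the Cacnb1 difference was not tested. Cacnb4, a mainly neuronal beta subunit, was at 3.94 ± 0.16 in knockout and 3.97 ± 0.13 in control hearts (SD).

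**Figure D2:**
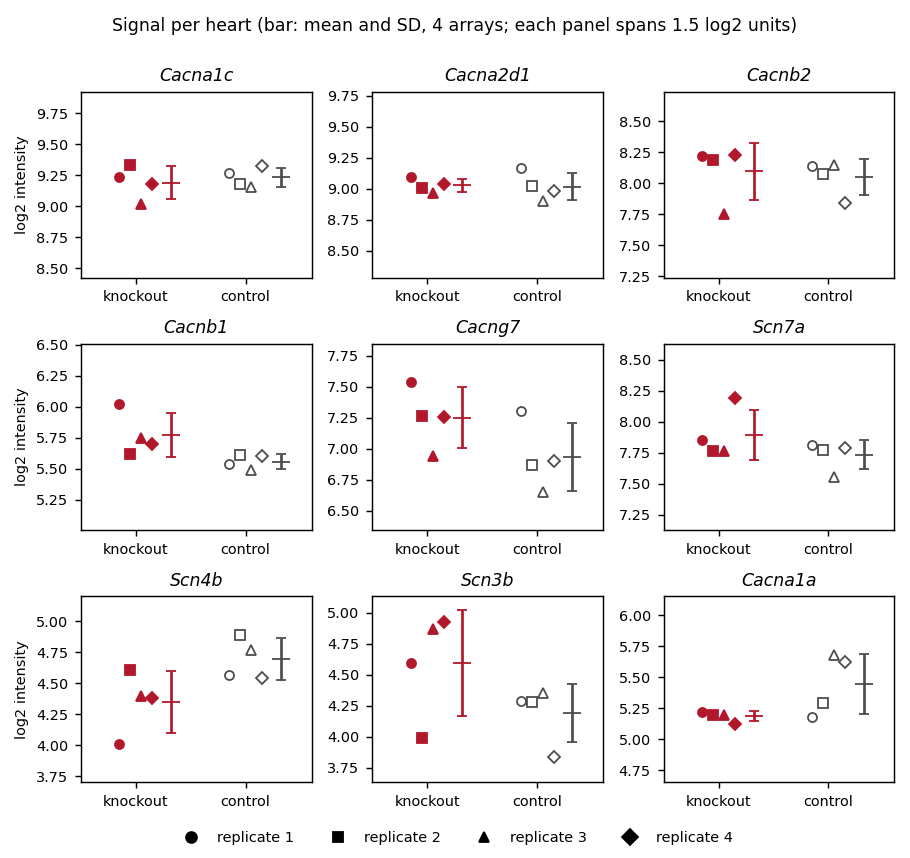
Log2 intensity of 9 channel subunit genes in each heart, knockout (filled, left) and control (open, right), with marker shapes for replicates 1 to 4. Bars are the mean and SD of 4 arrays, and every panel spans the same height of 1.5 log2 units. Cacna1c and Cacna2d1 overlap widely. For Cacnb2 a single knockout heart lies below every control heart and the other knockout hearts lie above them. Cacnb1 separates by a small margin, and Scn3b is spread widest among the knockout hearts.

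The other L-type pores did not pass. Cacna1s, the voltage sensor of skeletal muscle contraction, was at 4.81, 5.12, 4.97 and 4.81 in knockout hearts, against 4.95, 5.04, 5.28 and 5.20 in control hearts, a difference of -0.19 ± 0.10 (SE; limma adjusted p = 0.505). Knockout replicates 1 and 4 were the lowest of the 8 hearts, and the difference was -0.069 with both left out. Cacna1d, the L-type pore known from sinoatrial and atrial cells, was at 4.44, 4.34, 4.35 and 4.51 in knockout hearts, against 4.46, 4.34, 4.07 and 4.23 in control hearts, a difference of 0.14 ± 0.095. Its low values were control replicates 3 and 4, and the difference was 0.068 without control replicate 3 and 0.20 without control replicate 1. For Cacna1f, the pore known from retinal photoreceptors, the difference was -0.15 ± 0.10.

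Among the T-type pores, Cacna1g varied widely between hearts of one group. Cacna1g was at 4.45, 4.96, 4.51 and 4.48 in knockout hearts, against 5.09, 4.57, 4.05 and 4.34 in control hearts. The control hearts alone spanned the whole range, and the residual SD of 0.356 was the largest of the 25 members (their median 0.150; all tested genes 0.148). The difference was 0.087 ± 0.20 (SE; limma adjusted p = 0.892), and it was -0.033 without knockout replicate 2 and 0.28 without control replicate 1. Those arrays also had the highest signals of the atrial genes Myl7 (9.02 in knockout replicate 2 and 5.04 in control replicate 1) and Sln, which encodes sarcolipin (9.31 and 4.98). On the other 6 arrays Myl7 lay between 4.03 and 4.45 and Sln between 2.75 and 3.76. The score over 10 tested atrial markers was 1.30 in knockout replicate 2 and 0.069 in control replicate 1, against -0.35 to -0.055 elsewhere. Not every marker had this order. Myl4 was lower in control replicate 1 (5.04) than in control replicate 2 (5.10) and every knockout heart. Dkk3 was highest in knockout replicate 4 (6.85) and Pam in knockout replicate 1 (11.11).

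Cacna2d2, an alpha2-delta subunit, had its highest values in knockout replicate 2 and control replicate 1, 4.43 and 4.15. Over all hearts Cacna2d2 was at 3.91, 4.43, 3.79 and 4.06 in the knockout, against 4.15, 3.82, 3.69 and 3.90 in the control, a difference of 0.16 ± 0.14 (SE; limma adjusted p = 0.691) that was 0.030 without knockout replicate 2. The part of atrial tissue in these values was not tested. Cacna1h, the T-type pore reported in hypertrophied ventricle, was at 4.52, 4.70, 4.60 and 4.50 in knockout hearts, against 4.55, 4.84, 4.56 and 4.59 in control hearts. It differed by -0.054 ± 0.089 (SE), and its groups overlapped. Cacna1i, a T-type pore of the brain, was below the filter.

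Of the 3 pores of presynaptic channels both that passed the filter were lower on average in the knockout, without passing the test. Cacna1a, the P/Q-type pore, was at 5.22, 5.19, 5.19 and 5.13 in knockout hearts, against 5.18, 5.29, 5.68 and 5.63 in control hearts. The knockout hearts lay close together, and the control hearts fell into replicates 1 and 2 near them and replicates 3 and 4 above. Its difference was -0.26 ± 0.11 (SE; limma p = 0.0461, adjusted p = 0.444; exact two-sided permutation p = 0.114), and -0.18 without control replicate 3. Nerve and glia markers, of which 13 of 24 listed passed the filter, had scores from -0.047 to 0.16 in knockout and from -0.098 to 0.019 in control hearts, with control replicate 3 the lowest and control replicate 4 the highest of the controls. Cacna1b, the N-type pore, differed by -0.051 ± 0.098, and Cacna1e, the R-type pore, had a mean of 2.95, below the filter. The remaining alpha2-delta genes Cacna2d3 and Cacna2d4, known mainly from nervous system and retina, differed by -0.18 ± 0.088 and -0.096 ± 0.10. Cacna2d3 passed the filter of 3.80 only through its control hearts, with means of 3.79 in knockout and 3.97 in control hearts. Its difference therefore lies at the filter's edge.

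The Cacng genes encode tetraspan proteins: Cacng1 is a subunit of the skeletal muscle channel, and several others are known as auxiliary subunits of AMPA receptors in neurons. Of 8 genes 6 passed the filter, 3 higher and 3 lower with a median of -0.00035. Cacng7, chosen for description after its values were seen, was at 7.54, 7.26, 6.94 and 7.26 in knockout hearts, against 7.30, 6.87, 6.65 and 6.90 in control hearts. Control replicate 1 lay among the knockout hearts and knockout replicate 3 among the controls. The means were 7.25 ± 0.24 and 6.93 ± 0.27 in knockout and control hearts (SD), with a difference of 0.32 ± 0.15 (SE; 95% interval -0.025 to 0.66; limma adjusted p = 0.467). It was 0.17 with knockout replicates 1 and 4 both left out. Its neighbours on the chromosome, Cacng8 and Cacng6, differed by -0.0033 ± 0.14 and 0.0026 ± 0.11. Cacng4 differed by 0.13 ± 0.080, Cacng5 by -0.17 ± 0.10 and Cacng2 by -0.18 ± 0.10, while Cacng1 and Cacng3 were below the filter.

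**Figure D3:**
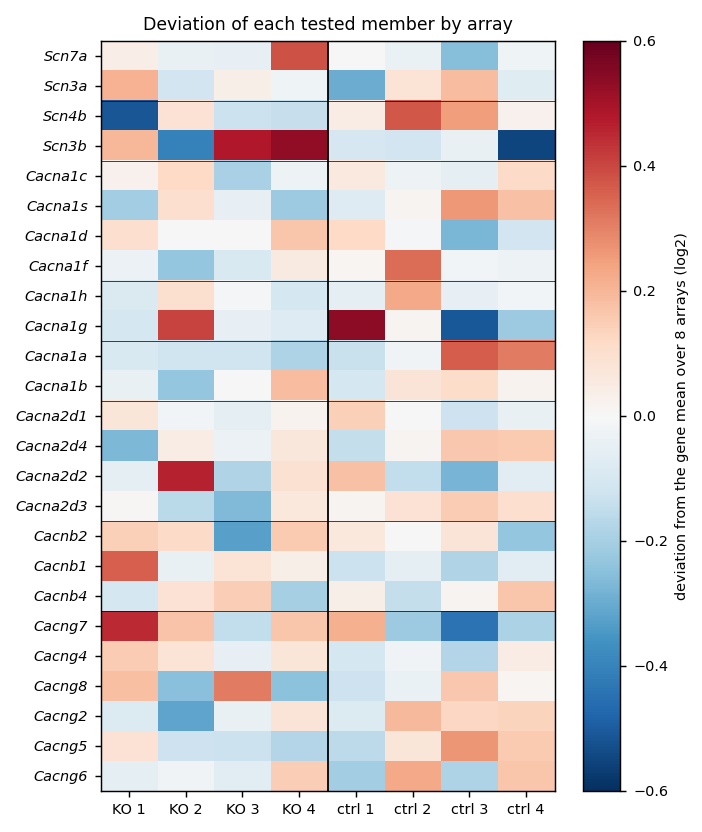
Deviation of each of the 25 tested members from its own mean over the 8 arrays (log2, colour), with the 4 knockout arrays left of the line and the 4 control arrays right of it, and genes in order of role. Cacna1g and Scn3b have the largest spread within the groups.

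Each tested member was also set against the fibroblast and the ventricular cardiomyocyte score across the 8 arrays, 50 relations in all. With each score 5 of 25 Pearson relations had an unadjusted p under 0.05. After Benjamini-Hochberg adjustment over all 50 relations together, 1 remained with each score. The share of all tested genes at these levels was not counted, so the counts cannot be read as particular to the channel genes. Cacng7 followed the fibroblast score with a Pearson r of 0.94 (p = 0.000769 by exact permutation, 0.0192 adjusted). Its Spearman rho was 0.93 (p = 0.00223 by exact permutation, 0.0558 adjusted). The 4 arrays with the highest fibroblast scores, knockout replicates 1, 4 and 2 and control replicate 1, were also the 4 highest in Cacng7. Knockout replicates 1 and 4 had the scores farthest from the median, and r was 0.96 without them, and after removal of each group's mean it was 0.92 (p = 0.00347 by exact permutation within the groups, whose 576 orders allow no p below 0.00174). Among all tested genes outside the marker list, 1.90% had an r at least as large in size.

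Scn4b followed the ventricular cardiomyocyte score with a Pearson r of 0.87 (p = 0.000422 by exact permutation, 0.0192 adjusted). Its Spearman rho was 0.93 (p = 0.00223 by exact permutation, 0.0558 adjusted). Knockout replicate 1 was lowest and control replicate 2 highest in both measures. The value of r was 0.82 without knockout replicates 1 and 4 and 0.75 after removal of each group's mean (p = 0.0226 by exact permutation within the groups). Of all tested genes outside that list, 8.39% had an r at least as large in size, so the relation of Scn4b was shared with many genes on these arrays. The part of either cell type in the genotype differences was not tested.

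**Figure D4:**
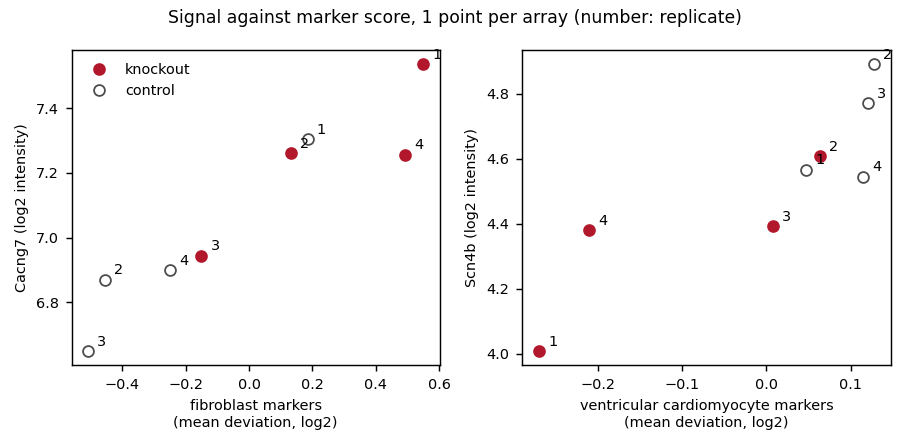
Log2 intensity of Cacng7 against the fibroblast marker score (left) and of Scn4b against the ventricular cardiomyocyte marker score (right), where a score is the mean deviation (log2) of 20 marker genes. Each point is 1 array, filled for knockout and open for control, numbered by replicate. Both relations run through both groups (r = 0.94 and r = 0.87).

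Proteins that bind these channels were also read from the same fit. Of 17 tested genes of sodium channel partners 5 were higher and 12 lower in the knockout, with a median of -0.13 and 0 called. Unadjusted p-values under 0.05 numbered 1 higher and 3 lower (23.5%), against 11.2% of all tested genes (5.64% higher and 5.61% lower). The partner lists were chosen with earlier results of these data known, and no list was tested as a set. Fgf14, an intracellular fibroblast growth factor that binds the tail of sodium channel alpha subunits, was at 4.92 ± 0.26 in knockout and 5.30 ± 0.092 in control hearts (SD), a difference of -0.38 ± 0.12 (SE; limma adjusted p = 0.421). The syntrophin gene Sntb1, an adaptor of the dystrophin complex, differed by 0.45 ± 0.15, and Tmem65, an intercalated disc protein gene, by -0.29 ± 0.11. Among 18 tested calcium channel partners 6 were higher and 12 lower (median -0.025, 0 called). An unadjusted p under 0.05 was found for 1 higher and 2 lower (16.7%). There the sorcin gene Sri, a calcium-binding regulator, differed by 0.32 ± 0.11. The protein kinase A regulatory subunit gene Prkar2a differed by -0.20 ± 0.073 and the kinase anchor gene Akap7 by -0.18 ± 0.079. Prkar2a had no overlap between its groups, and groups without overlap and the knockout lower were found in 2.90% of all tested genes.

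Downstream of calcium entry, 7 of 19 tested genes of calcium release and removal were higher and 12 lower (median -0.078, 0 called). Of them 2 higher and 3 lower had an unadjusted p under 0.05 (26.3%, against 11.2% of all tested genes). Hrc, a histidine-rich calcium-binding protein of the sarcoplasmic reticulum, was at 7.13, 8.65, 8.46 and 7.87 in knockout hearts, against 8.55, 8.88, 8.83 and 8.89 in control hearts. Its low values were knockout replicates 1 and 4, the arrays with the lowest ventricular marker scores, and its difference was -0.76 ± 0.28 (SE; limma adjusted p = 0.421). Casq1, the calsequestrin of skeletal muscle, differed by 0.50 ± 0.15. For comparison, of 67 tested potassium channel genes (symbols beginning with Kcn) 34 were higher and 33 lower (median 0.0011, 0 called). At an unadjusted p under 0.05 were 2 higher and 8 lower, or 14.9% of the 67. Over all tested genes the shares were 5.64% higher and 5.61% lower. No test of a difference between the channel families was made.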

How the data were processed

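Total RNA of frozen hearts was hybridised to Affymetrix arrays, per the labels' protocols. For 41345 probe sets on 8 arrays the authors deposited log2 intensity values. The tools named, per the submitters' processing notes, are RMA and limma, with no version. RMA equalises the distributions of arrays and so hides a change common to all genes. A log2 intensity depends on the probes of a set, so signals of different genes do not rank their transcripts. The sources used here do not say where probes lie in a gene or which arrays were run together.

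By the platform annotation 23521 probe sets had 1 symbol, 1814 had several and 16010 had no symbol. Of the first, 23328 took the RefSeq symbol by Entrez identifier. A gene was tested when its mean reached the 40th percentile of probe set means (3.80), which left 15086 genes. Knockout minus control was fitted with limma 3.58.1 in R 4.3.3 (lmFit and eBayes) with Benjamini-Hochberg adjustment over all tested genes. The step was tested on simulated data. Errors of differences are moderated standard errors, and exact permutation tests used all 70 assignments of arrays, or all orders for relations (within each group once group means were removed).

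The members, the partner and marker lists and the tests were chosen with earlier results of these data known. Values per array were given for a cardiac panel and for tested members without overlap or with an unadjusted p under 0.05, and the 3 genes of smallest p were named per partner list. Cacng7 and the relations to marker scores were added after values were seen. The alternatives were other filters, scalings, probe set summaries and variance models, the replicate number as a block, and leaving out each array.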

Additional observations from a re-analysis of the deposited data

Results flagged for a closer look

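Among 72 groups of 4 values (36 genes in both genotypes) 7 held an array far from the other 3, by Dixon's criterion for the gap relative to the group's range. Chance marks about 1 in 20 groups, and the share marked over all genes on these arrays was not counted. Cacna1g was at 4.96 in knockout replicate 2, against 4.45 to 4.51 in the other knockout hearts. Cacnb2 was at 7.75 in knockout replicate 3, against 8.19 to 8.23. In control hearts, Cacna1f was at 4.45 in replicate 2 (others 4.08 to 4.12), Cacna1h at 4.84 in replicate 2 (4.55 to 4.59), Scn3b at 3.84 in replicate 4 (4.28 to 4.35), Scn7a at 7.56 in replicate 3 (7.77 to 7.81) and Scn10a, which is below the filter, at 3.63 in replicate 3 (3.00 to 3.03).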

How the results depend on the processing

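Under the 18 alternatives 0 members and 0 genes over all genes were called by limma. The lowest adjusted p of a member was 0.170. The count of members at an unadjusted p under 0.05 ran from 0 to 6 (3 as reported), and that of all genes from 617 to 2390 (1697 as reported); the lowest of these was without knockout replicates 1 and 4 together, which was added after seeing the data. A filter at the 60th percentile, which left 9 members, gave a median difference of 0.046 over them; it was -0.035 with array weights. Leaving out 1 array gave -0.038 to 0.016. The labels do not say that replicate numbers mark pairs. Same-numbered arrays had correlations of 0.36, 0.0087, 0.28 and -0.025 of their deviations from the group means; arrays of replicates 1 and 3 correlated best with their own number in both groups, and those of 2 and 4 did not, so the numbers were not taken as pairs. With the replicate block 0 members were called, 2 had an unadjusted p under 0.05, against 2177 of all genes, and the median was -0.0033. Cacng7 then had a standard error of 0.076, against 0.15 without the block, and an adjusted p of 0.170, the lowest given above. Of 246 values of 14 named members under alternatives, 234 kept their sign and 12 turned it, in 5 genes with small differences. Leaving out 1 array gave -0.087 to 0.016 for Cacna1c, -0.028 to 0.061 for Cacna2d1, -0.025 to 0.16 for Cacnb2, -0.067 to 0.28 for Cacna1g and -0.095 to 0.013 for Cacna1h. With a common median Cacna2d1 was at -0.015. Without knockout replicates 1 and 4 together Cacna2d1 was at -0.029, Cacnb2 at -0.082 and Cacna1h at 0.016. The cause of these turns was not tested. Most members had signals near the filter, where few arrays and low intensity limit what can be seen.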

Other observations

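The sodium channel beta subunit genes Scn3b and Scn4b lay at opposite ends of the members' differences, 0.40 and -0.35, so their difference within an array was 0.75 larger on average in knockout than in control hearts (log2). The pair was chosen after its values were seen and was not tested. For Cacng7 and its neighbour Cacng8 the same quantity was 0.32, and for Cacnb1 and Cacnb2 it was 0.17. Of the 25 tested members 8 had their lowest value in control replicate 3 and 5 their highest there, while 5 had their lowest and 5 their highest in knockout replicate 4. The same counts over all tested genes were not made. The mean deviation over the 25 members was between -0.037 and 0.035 on every array.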
